A study of Mus musculus with 6 samples.

Results

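The 10 genes described here encode negative regulators and transcriptional outputs of the Ras-ERK branch of mitogen-activated protein kinase (MAPK) signalling. They are the dual-specificity phosphatase genes Dusp4, Dusp5 and Dusp6, the sprouty genes Spry1, Spry2 and Spry4, the sprouty-related genes Spred1 and Spred2, and the ETS transcription factor genes Etv4 and Etv5. They were chosen by name from the table of normalised counts, which lists 14254 genes, and all 10 were listed and passed the filter on low values. RNA was sequenced from organoids of the mouse pancreatic cancer line KPF_5.3G, which are tumour cell clusters that grow in culture as small rounded bodies rather than as a flat layer. The knockdown group is 3 libraries of organoids that carry the lentiviral hairpin shJag1_3 against Jag1, which encodes a Notch ligand, and the control group is 3 libraries of organoids that carry shCtrl. No second hairpin and no second line enters the comparison. Organoids of both groups grew with EGF at 50 ng/mL and hFGF-10 at 100 ng/mL, ligands of receptors that activate ERK, together with gastrin, R-Spondin-1 and mNoggin. The series is about the role of Jag1 in CD9-rich tumour-initiating cells of a mixed epithelial and mesenchymal state. The libraries compared here are of whole organoids and do not single out such cells.

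Growth factor receptors activate Ras, which drives the kinases RAF, MEK and ERK in turn. Active ERK induces genes whose products damp the cascade again: Dusp proteins remove phosphate from MAP kinases, and Sprouty and Spred proteins act upstream at the level of Ras and RAF. Etv4 and Etv5 are ETS factors of the PEA3 group that are transcribed when ERK is active, and the mRNAs of Dusp6, Spry4, Etv4 and Etv5 are widely used as readouts of ERK output. Capicua, encoded by Cic, is a repressor of such genes that loses its hold on DNA when ERK is active.

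Promoter stretches of Dusp6, Spry1 and Spry2 are shown because these 3 genes were lowest in the same libraries and because their start sites were the same in RefSeq and in GENCODE M21. Each stretch is the 250 bases before the start site, 5′ to 3′ on the strand of the gene, from RefSeq on GRCm38.p6. The Dusp6 stretch lies on the plus strand at chr10:99262981-99263230, the Spry1 stretch on the plus strand at chr3:37639697-37639946 and the Spry2 stretch on the minus strand at chr14:105896820-105897069. Capitals mark a match to the octamer that Capicua binds.
Dusp6: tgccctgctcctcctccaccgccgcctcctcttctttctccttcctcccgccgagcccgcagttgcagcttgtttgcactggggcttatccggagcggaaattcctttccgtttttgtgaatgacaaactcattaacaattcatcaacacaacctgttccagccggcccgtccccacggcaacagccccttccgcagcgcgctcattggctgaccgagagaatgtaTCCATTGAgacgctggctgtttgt
Spry1: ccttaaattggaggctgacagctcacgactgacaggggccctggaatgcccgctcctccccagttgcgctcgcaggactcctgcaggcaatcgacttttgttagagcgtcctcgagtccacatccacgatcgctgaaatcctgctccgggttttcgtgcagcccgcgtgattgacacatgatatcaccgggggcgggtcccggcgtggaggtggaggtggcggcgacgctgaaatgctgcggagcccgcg
Spry2: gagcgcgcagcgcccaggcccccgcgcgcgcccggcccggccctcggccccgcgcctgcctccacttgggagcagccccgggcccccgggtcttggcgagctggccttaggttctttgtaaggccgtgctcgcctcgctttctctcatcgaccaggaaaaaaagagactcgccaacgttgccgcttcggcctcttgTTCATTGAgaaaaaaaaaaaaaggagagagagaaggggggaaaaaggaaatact

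The octamer was searched on both strands in its 4 spellings TGAATGAA, TGAATGGA, TCAATGAA and TCAATGGA. It was present in the stretch of Dusp6, as TCAATGGA on the opposite strand, and in that of Spry2, as TCAATGAA on the opposite strand. Counted along the strand of the gene, the match starts at position -24 in Dusp6 and at position -54 in Spry2. Of the 32851 promoters in the table, 3.19% held one of the 4 spellings in the same window. Promoters of 7 of the 10 genes were in the table, with 8 entries since Etv5 had a pair of start sites. The ETS motif CCGGAAGT was in none of the 8 entries and in 2.88% of all promoters. No overlap between the motifs arose in these stretches. A match is a run of letters and was not tested for binding.

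The libraries held from 22110664 to 35010147 reads on genes. Both libraries numbered 1 stood apart from the other 4: the first principal component of the log2 values held 55.8% of the variance and set them apart. Libraries with the same number were treated as pairs in the pair differences and in fits with a replicate term. The reason was that their deviations from the group means correlated across genes. Knockdown 2 with control 3 and knockdown 3 with control 2 correlated too, so this does not settle how libraries 2 and 3 match. The share of mitochondrial reads was 0.555%, 1.02% and 1.20% in knockdowns 1, 2 and 3 and 0.595%, 1.55% and 2.03% in controls 1, 2 and 3. The epithelial markers Epcam, Cdh1, Krt7, Krt8, Krt18 and Krt19 were all listed, and their summed normalised count was 217666, 578069 and 349519 in knockdowns and 165847, 235714 and 209427 in controls. Of the 6 fibroblast markers 4 were not listed, and the other two summed to at most 45.5. Of the 6 immune markers Cd68 alone was listed, at 117, 988 and 400 in knockdowns and 98.6, 136 and 111 in controls. Of the 5 endothelial and 5 acinar markers 1 each was listed, at most at 62.1. The part of replicate number, mitochondrial share and epithelial marker level in the results below was not tested.

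Jag1, the target of the hairpin, had 226, 321 and 557 normalised counts in knockdowns 1, 2 and 3 and 412, 983 and 847 in controls 1, 2 and 3. Knockdown 3 was higher than control 1, so the groups overlapped. In limma the log2 change was -1.03 (SE 0.45, adjusted p = 0.691, n = 3 per group), and in DESeq2 with the replicate number as a term it was -1.02 (SE 0.27, adjusted p = 0.00628). Over the 20 alternative settings its adjusted p ran from 0.00288 to 1.00. An exact two-sided permutation test on the log2 values, which did not use the pairs, gave p = 0.2, where 3 against 3 cannot go below 0.1.

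Spred1, Spred2 and Etv5 had lower normalised counts in the knockdown of every pair, with group means at 71.1%, 69.3% and 72.0% of control, and Dusp6 was lower in every pair by amounts that differed widely. Spry4 and Dusp4 were higher in knockdowns 2 and 3 than in their controls and lower in knockdown 1 than in control 1. Dusp5, Spry1 and Spry2 did not keep 1 direction across pairs, and Etv4 was nearly level in pairs 1 and 2. In limma on all 6 libraries 0 of the 10 genes passed an adjusted p of 0.05, with 3 genes at an unadjusted p below 0.05, against 0% of all 13997 genes tested, of which 1021 had an unadjusted p below 0.05. edgeR likewise called 0 of the 10 without the replicate term (3 at an unadjusted p below 0.05), against 0% of all genes and 1021 genes at that level, and with the term (4), against 0.0143% and 2605 genes. When the replicate number was a term, limma called 0 of the 10 (4 at an unadjusted p below 0.05) against 0.0143% of all genes, with 2725 at that level. DESeq2 with the term called 0 of the 10 (5 at an unadjusted p below 0.05) against 7.44% of all genes, with 2557 at that level. Without the term DESeq2 called 0 of the 10 (1 at an unadjusted p below 0.05) against 1.25% of all genes, with 1277 at that level. In limma with spike-in scaling 0 of the 10 were called (0 at an unadjusted p below 0.05) against 0.829%, with 580 at that level. Each of these all-gene counts at an unadjusted p below 0.05 is out of 13997 genes. With 1 library left out limma again called 0 of the 10, against 2.10% of all genes without control 1, 0.00714% without knockdown 1 and 0% without any of the other 4. The lowest adjusted p among the 10 genes with the term was 0.164 in limma and 0.0567 in DESeq2, both for Spred2. These are RNA levels of whole organoids, in which fewer cells of a type and less RNA per cell cannot be told apart.

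**Figure D1:**
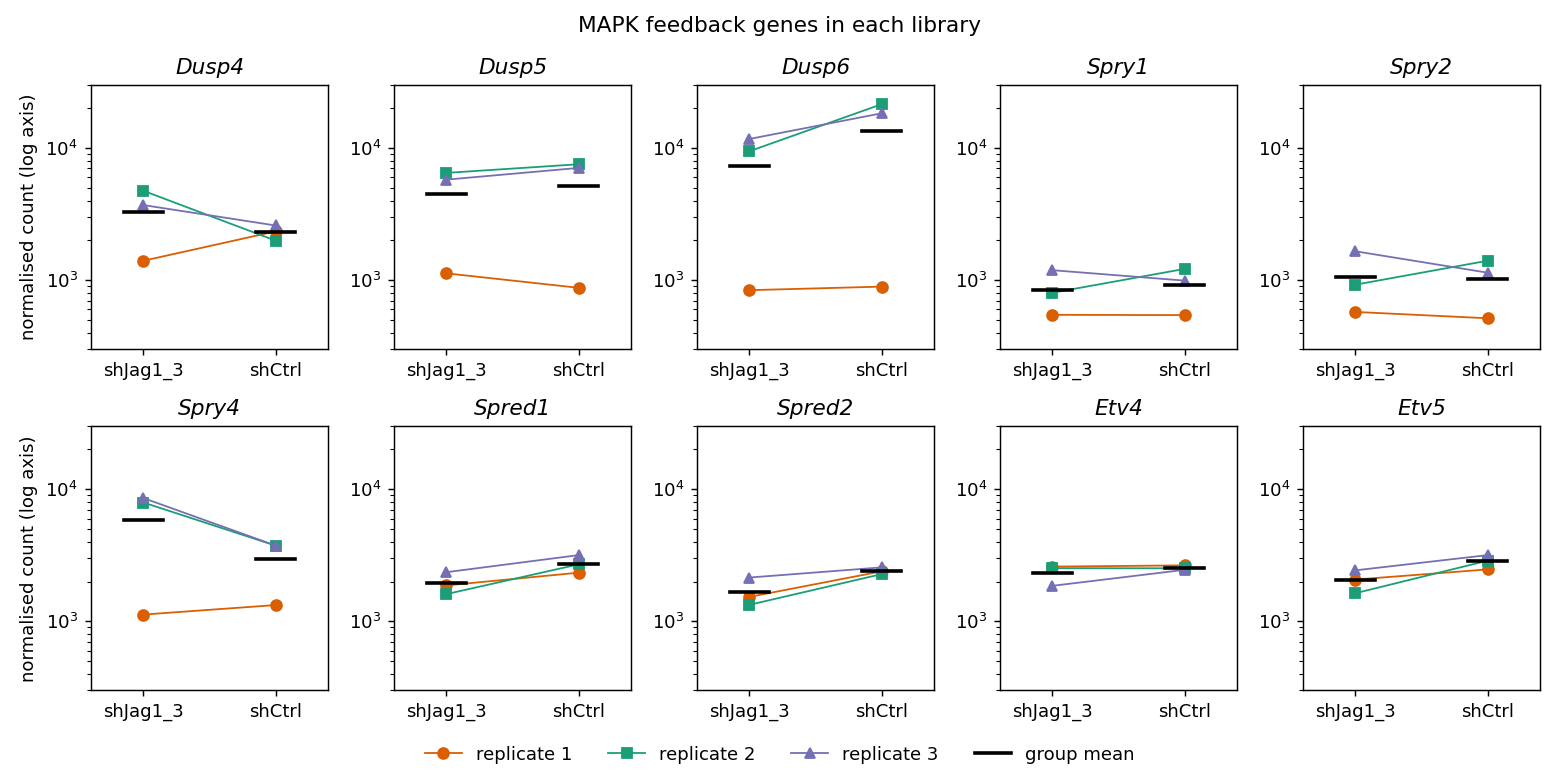
Normalised count (log axis) of each of the 10 genes in the shJag1_3 and shCtrl libraries, with a line between libraries of the same replicate number and a black bar at each group mean (n = 3 per group). Dusp5, Dusp6 and Spry4 were lowest in both libraries numbered 1, with Dusp6 at 839 and 893, while Spred1, Spred2 and Etv5 show a line that runs lower in shJag1_3 for every number.

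The median log2 change of the 10 genes was -0.13 in limma, beside 0.00 over all genes tested, with 3 genes above 0 and 7 below. By pair their median was -0.16, -0.60 and -0.28 in pairs 1, 2 and 3, beside 0.01, -0.01 and 0.01 over all genes. The members thus differed more in pair 2 than in pair 1, as genes in general did: the median size of the log2 difference was 0.25, 0.76 and 0.42 for the 10 genes and 0.22, 0.39 and 0.35 for all genes. In 4 of the 10 genes (Dusp6, Spred1, Spred2 and Etv5) the knockdown was lower in all 3 pairs, which held for 19.7% of all genes, and 0 were higher in all 3 pairs, which held for 22.3%. In 2 of the 10, Spred2 and Etv5, every knockdown lay below every control, which held for 5.44% of all genes, and in 0 of the 10 every knockdown lay above every control, which held for 6.29%.

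**Figure D2:**
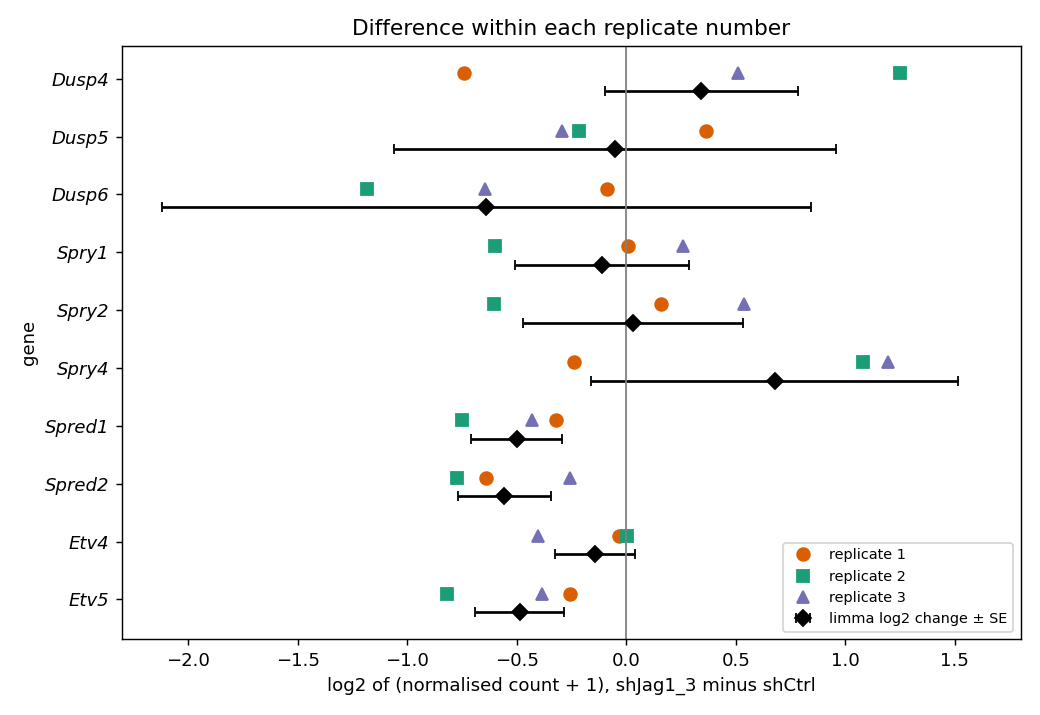
Difference in log2 of the normalised count plus 1, shJag1_3 minus shCtrl, within each replicate number (coloured points) and the limma log2 change with its standard error (black, n = 3 per group). Spred1, Spred2 and Etv5 lie below 0 in all 3 pairs, and Spry4 lies above 1 in pairs 2 and 3 and at -0.24 in pair 1.

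Dusp6 encodes a cytoplasmic phosphatase selective for ERK and showed the widest spread of the 10 genes. The gene occupies chromosome 10, plus strand, positions 99263231 to 99267489 in GRCm38. Its normalised count was 839, 9450.5 and 11702 in knockdowns 1, 2 and 3 and 893, 21434 and 18299.6 in controls 1, 2 and 3. Both libraries numbered 1 were far below the other 4, and knockdowns 2 and 3 lay below controls 2 and 3. Within a group the highest library was 13.9-fold above the lowest among knockdowns and 24.0-fold among controls, a range reached by 1.38% and 0.943% of all genes tested. The log2 difference was -0.09, -1.18 and -0.64 in pairs 1, 2 and 3. In limma the change was -0.64 (SE 1.48, adjusted p = 0.954), and with the replicate term the SE was 0.22 (adjusted p = 0.208). With both libraries numbered 1 left out, limma on replicates 2 and 3 found that Dusp6 fell by 0.91 on the log2 scale (SE 0.17, adjusted p = 0.0331, n = 2 per group). Over the 20 alternative settings its adjusted p ran from 4.17e-04 to 1.00, and its sign turned when knockdown 1, control 2 or control 3 was left out alone.

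Dusp5 encodes a nuclear phosphatase that also acts on ERK. The gene occupies chromosome 19, plus strand, positions 53529109 to 53542431. Its normalised count was 1125, 6479 and 5759.8 in knockdowns and 875, 7530.5 and 7066 in controls. As for Dusp6, both libraries numbered 1 were low, with a range of 5.75-fold among knockdowns and 8.60-fold among controls, but the knockdown of pair 1 was the higher of its pair. The limma change was -0.05 (SE 1.01, adjusted p = 0.995), and on replicates 2 and 3 only it was -0.26 (SE 0.14, adjusted p = 0.301).

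Dusp4 encodes a nuclear phosphatase with ERK, JNK and p38 among its substrates. The gene occupies chromosome 8, plus strand, positions 34807297 to 34819894. Its normalised count was 1402, 4742 and 3698 in knockdowns and 2338, 1990.3 and 2591 in controls. Controls varied by 1.30-fold and knockdowns by 3.38-fold, with knockdowns 2 and 3 above all controls and knockdown 1 below all of them. The limma change was 0.34 (SE 0.44, adjusted p = 0.901). On replicates 2 and 3 only the change was 0.88 (SE 0.20, adjusted p = 0.0509) in limma, and DESeq2 with the replicate term on the same 4 libraries called it higher (0.88, adjusted p = 0.00329). Its adjusted p over the 20 settings ran from 0.00329 to 1.00.

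The sprouty genes encode membrane-associated inhibitors of receptor tyrosine kinase signalling, and the 3 members had no direction in common. Spry4 occupies chromosome 18, minus strand, positions 38586247 to 38601415. It had 1126, 7934 and 8572 normalised counts in knockdowns and 1329, 3745 and 3747 in controls. Knockdowns 2 and 3 lay above every control, while knockdown 1 lay just below control 1 and both were under the other 4 libraries. The log2 difference was -0.24, 1.08 and 1.19 in pairs 1, 2 and 3. In limma the change was 0.68 (SE 0.84, adjusted p = 0.896), and with the replicate term limma gave an adjusted p of 0.269 and DESeq2 one of 0.154. In limma on replicates 2 and 3 only Spry4 rose by 1.14 on the log2 scale, or 2.20-fold (SE 0.13, adjusted p = 0.0104, n = 2 per group), and over the 20 settings its adjusted p ran from 9.68e-07 to 1.00.

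Spry1 and Spry2 had lower levels and smaller differences. Spry1 (chromosome 3, plus strand, positions 37639947 to 37644598) had 546, 802 and 1189 normalised counts in knockdowns and 543, 1216 and 992 in controls. Spry2 (chromosome 14, minus strand, positions 105891947 to 105896819) had 574, 924 and 1653 in knockdowns and 514.5, 1402 and 1139 in controls. In both genes the libraries numbered 1 were lowest, knockdown 2 was below control 2 and knockdown 3 was above control 3. The limma change was -0.11 (SE 0.40, adjusted p = 0.973) for Spry1 and 0.03 (SE 0.50, adjusted p = 0.995) for Spry2, and the sign for Spry2 turned with spike-in scaling. The libraries do not mark strand, and Gm42922 overlaps Spry1 on the opposite strand, with at most 35.1 normalised counts.

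Spred1 and Spred2 encode relatives of the sprouty proteins that bring neurofibromin, a Ras inactivator, to the membrane. Spred1 occupies chromosome 2, plus strand, positions 117121374 to 117182279, and Spred2 chromosome 11, plus strand, positions 19924375 to 20024026. Spred1 had 1872, 1608 and 2356.5 normalised counts in knockdowns and 2336, 2701 and 3173 in controls. Knockdown 3 lay just above control 1, so the groups overlapped by that pair of libraries. Spred2 had 1532, 1334 and 2146 in knockdowns and 2391, 2279 and 2562 in controls, and its groups did not overlap. The limma change was -0.50 (SE 0.21, adjusted p = 0.675) for Spred1 and -0.56 (SE 0.21, adjusted p = 0.668) for Spred2. With the replicate term limma gave an adjusted p of 0.166 for Spred1 and 0.164 for Spred2, and DESeq2 gave 0.0786 for Spred1 and 0.0567 for Spred2. Neither gene stood apart in the libraries numbered 1, and the sign was negative under all 20 alternative settings for both. For Spred2, whose groups did not overlap, leaving out a library cannot turn the sign.

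Etv5 and Etv4, the transcription factor genes of the set, differed in behaviour. Etv5 occupies chromosome 16, minus strand, positions 22381309 to 22439719, and Etv4 chromosome 11, minus strand, positions 101769742 to 101785371. Etv5 had 2072, 1634 and 2434 normalised counts in knockdowns and 2473, 2880.4 and 3174 in controls. Every knockdown was below every control, by a narrow gap between knockdown 3 and control 1. The limma change was -0.49 (SE 0.20, adjusted p = 0.678), with an adjusted p of 0.187 in limma and 0.125 in DESeq2 with the replicate term. Etv4 had 2598, 2526 and 1858 in knockdowns and 2654, 2521 and 2455 in controls. Its range among controls was 1.08-fold, and 95.3% of all genes had a range as wide or wider. Knockdown 3 lay below every control, while knockdowns 1 and 2 lay within the range of the controls, and the limma change was -0.14 (SE 0.18, adjusted p = 0.901).

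On replicates 2 and 3 only, limma called 2 of the 10 genes, Spry4 as higher and Dusp6 as lower, against 9.62% of all genes tested (6.04% higher and 3.57% lower). DESeq2 with the replicate term on the same 4 libraries called 5 of the 10 against 15.8% of all genes (9.29% higher and 6.47% lower). It called Dusp4 and Spry4 higher and Dusp6, Spred1 and Etv5 lower, with adjusted p of 0.0469 for Spred1 and 0.0476 for Etv5. The called genes thus went in both directions on these libraries, and so did the phosphatase genes among them, with Dusp4 higher and Dusp6 lower. With pairs 1 and 3 the same fit called 0 of the 10 against 0.736% of all genes, and with pairs 1 and 2 it called 0 of the 10 against 0.963%. Whether the difference between knockdown and control differs between pair 1 and pairs 2 and 3 was not tested.

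Per kilobase of exon, the phosphatase genes had the highest control means of the set, while among knockdown means Spry4, at 1236 ± 868, lay between Dusp5 and Dusp4. Levels were normalised counts per kilobase of the union of all GENCODE M21 exons of a gene, as the mean ± SD of 3 libraries. Dusp6 stood at 2341 ± 1831 in knockdowns and 4324 ± 3533 in controls, and Dusp5 at 1801 ± 1175 in knockdowns and 2085 ± 1503 in controls. Dusp4 had 1197 ± 624 in knockdowns and 842 ± 110.1 in controls, close to Etv4 with 749.8 ± 131 and 819 ± 32.6. Next in the controls came Etv5, Spry4, Spred2, Spry2, Spred1 and Spry1, at 693, 618, 522, 488, 403 and 316 per kilobase. In this order only the step between Etv4 and Etv5 was larger than the larger SD of both neighbours in controls. The order was not the same in each library: Dusp6 had 5843 per kilobase or more in controls 2 and 3, and 285 in control 1, below Etv4 at 855 there.

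**Figure D3:**
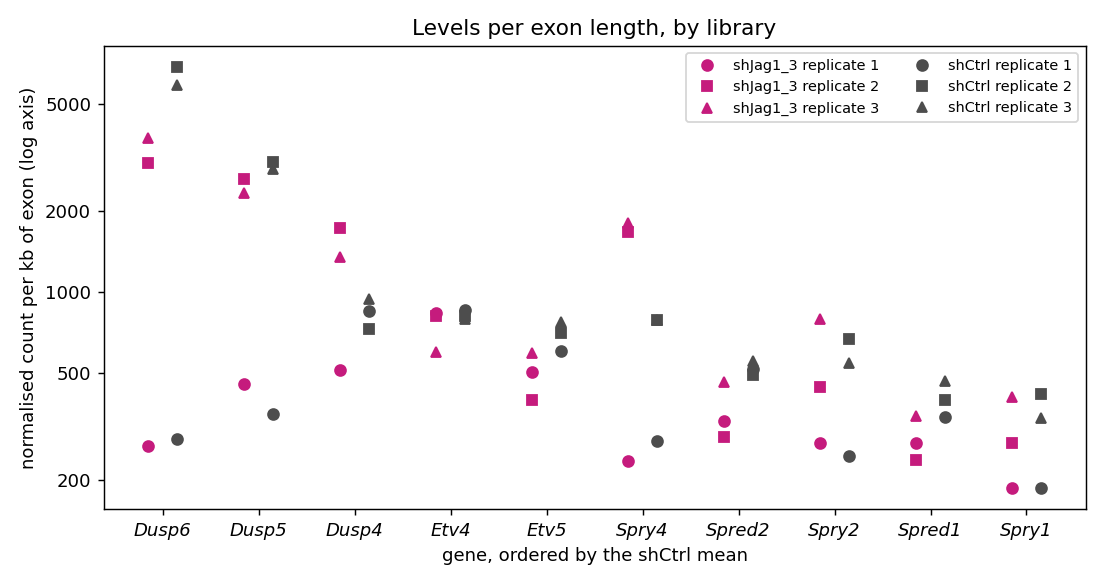
Normalised count per kilobase of exon (log axis) for each of the 10 genes in each library, shJag1_3 left of shCtrl, with genes ordered by the shCtrl mean. Dusp6 and Dusp5 span the widest ranges, and Etv4 in shCtrl stays within 791 to 855.

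The genes most like Dusp6 across the 6 libraries shared its low values in both libraries numbered 1. By Pearson correlation of log2 values these were Tslp, Steap1 and Rin1, each at r = 0.999 (n = 6 libraries). Tslp encodes a cytokine, Steap1 a membrane protein and Rin1 a protein that binds active Ras. Tslp had 0.877, 112 and 134 normalised counts in knockdowns and 0.829, 416 and 392 in controls. In both libraries numbered 1 Tslp was thus at the floor of the data, and these values weigh heavily on its r. Rin1 had 815, 2722 and 3094 in knockdowns and 848, 4663 and 4039.9 in controls. Rasa2, a Ras GTPase-activating protein gene, was most like Spry4 (r = 0.997), followed by the integrin gene Itgav and the transcription factor gene Tead4 (both r = 0.996). Slc27a1 (r = 0.995), Wdpcp and Smap2 (both r = 0.991) were most like Etv4, whose range was narrow. These correlations describe 6 libraries that fall into separate sets by replicate number, and carry no p.

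Among other genes of the pathway, 11 of 74 were called when DESeq2 included the replicate number, 5 as higher and 6 as lower. Over all genes the same fit called 7.44%, with 4.76% higher and 2.68% lower. The lists were chosen with earlier results of these data known, so these counts are not an independent test. Limma on all 6 libraries called 0 of the 74, with 8 at an unadjusted p below 0.05, against 1021 of all 13997 genes. With the same replicate term limma and edgeR also called 0 of the 74, with 21 each at an unadjusted p below 0.05. Over all 13997 genes that level was reached by 2725 in limma and 2605 in edgeR. Each rise or fall given below for these genes is thus a call of DESeq2 alone among the 3 fits with that term. Of 13 other Dusp genes tested 3 rose and 0 fell. Dusp1, an immediate early phosphatase gene, had 254, 1634 and 863 normalised counts in knockdowns and 165, 334 and 212 in controls, and rose by 1.66 on the log2 scale (SE 0.35, adjusted p = 1.93e-04 in DESeq2). Dusp8, whose product acts on JNK and p38, rose by 1.05 (adjusted p = 0.00664 in DESeq2) and Dusp14 by 0.80 (adjusted p = 0.026 in DESeq2), and neither had overlapping groups. All 3 were higher in the knockdown of every pair. The median log2 change over the 13 was 0.29, beside 0.00 over all genes.

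Genes of other inhibitors and relatives fell where they passed the same test. Spred3, the remaining Spred gene, was the 1 of 4 other Spry, Spred and Etv genes called, at 176, 616 and 425 normalised counts in knockdowns and 257, 1255 and 871 in controls (-0.87 on the log2 scale, SE 0.23, adjusted p = 0.00447 in DESeq2). Of 9 other feedback and Ras-inactivating genes 2 fell and 0 rose. Lrig1, whose product promotes the turnover of ErbB receptors, had 4038, 3089 and 2438 in knockdowns and 4927, 4847 and 5641 in controls (-0.71, SE 0.23, adjusted p = 0.0311 in DESeq2). Rasa3, a Ras GTPase-activating protein gene, fell by 0.96 on the log2 scale (adjusted p = 0.0146 in DESeq2).

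In the cascade itself the share of called genes, 5.88%, was near the 7.44% of all genes called by the same fit. Of 17 genes from the adaptors to ERK, 1 fell and 0 rose, with a median log2 change of -0.02 in DESeq2. That gene was Shc1, an adaptor of receptor tyrosine kinases, with 7664, 8714 and 11741 normalised counts in knockdowns and 13329, 12406 and 15934 in controls (-0.58, SE 0.17, adjusted p = 0.0148 in DESeq2). Of 7 receptor genes tested Erbb3, a receptor for neuregulins, rose by 1.12 (SE 0.25, adjusted p = 5.89e-04 in DESeq2), at 1822, 4716 and 4209 in knockdowns and 1267, 1552 and 1810.03 in controls. The groups did not overlap. Of 9 genes for nuclear factors that ERK regulates 0 were called, with 1, Elk1, at an unadjusted p below 0.05. Limma and edgeR with the replicate term also called 0, with 2 each at that level. Over all 13997 genes that level was reached by 2557 in DESeq2, 2725 in limma and 2605 in edgeR. The most abundant, Cic, was at 3057, 6087 and 4313 in knockdowns and 2995, 4229 and 3979 in controls (0.23, SE 0.19, adjusted p = 0.586 in DESeq2), and Elk3 was at -0.01 (SE 0.18).

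Of 15 other ERK target genes 1 rose and 2 fell in the same fit. Plaur, the urokinase receptor gene, rose by 0.77 (SE 0.18, adjusted p = 9.24e-04 in DESeq2). Ier3, an early response gene, had 2942, 21313 and 9328 normalised counts in knockdowns and 4478, 35327 and 26499 in controls (-0.94, SE 0.23, adjusted p = 0.00216 in DESeq2), and Ccnd1, the cyclin D1 gene, fell by 0.49 (adjusted p = 0.0415 in DESeq2). Ier3 was low in both libraries numbered 1, as Dusp6 was. The summed normalised count of the 15 targets was 47538, 163528 and 187973 in knockdowns and 52853, 169053 and 160662 in controls, while that of the 17 cascade genes was 51850.5, 59981 and 63142 in knockdowns and 56313, 62185 and 65293 in controls. The sums of the target genes were thus far lower in both libraries numbered 1, while those of the cascade genes were lowest there by a smaller margin. Abundant genes weigh most in the target sum, such as Epha2 at 7086, 30953 and 49990 in knockdowns and 7523, 25525 and 25506 in controls. Not every target was low there: Kcnn4 had 7521, 6870 and 4278 in knockdowns and 7612, 5038 and 6346 in controls.

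**Figure D4:**
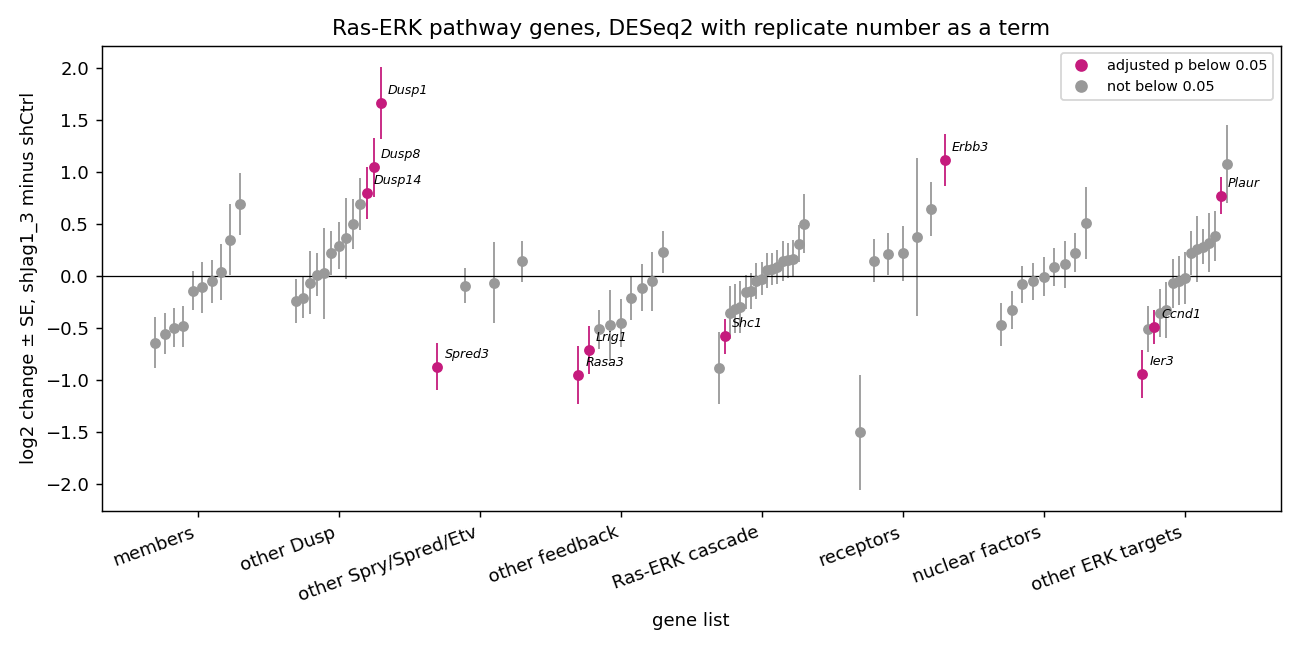
Log2 change, shJag1_3 minus shCtrl, with its standard error from DESeq2 with the replicate number as a term, for the 10 genes (members) and for 7 lists of other Ras-ERK pathway genes (n = 3 per group). Coloured points passed an adjusted p of 0.05: none of the 10 members, Dusp1, Dusp8, Dusp14, Erbb3 and Plaur above 0, and Spred3, Lrig1, Rasa3, Shc1, Ccnd1 and Ier3 below 0.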

How the data were processed

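RNA-seq libraries of 3 shJag1_3 and 3 shCtrl organoid samples were compared, with groups and replicate numbers taken from sample titles. Per the submitters' processing notes the tools were Trimmomatic, STAR 2.5.2b and DESeq2 1.32.0 on GRCm38; the counting tool and annotation are not given in the sources used here. The authors deposited a signal, the normalised count: reads of a gene over 1 size factor per library. Within 0.001 of a read, 100% of values were whole multiples of 1 step, so reads could be recovered. The 6 deposited tables were identical and 1 was used. Depth ran from 22110664 to 35010147 reads on genes. Symbols came from GENCODE M21 (14219 of 14254 genes), and 48 spike-ins entered no gene test.

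The test was limma 3.58.1 with a trend (R 4.3.3) on the log2 normalised count with a pseudocount of 1. This main fit had no replicate term, since the labels state no pairing. It covered 13997 genes that reached 10 in at least 3 libraries, with Benjamini-Hochberg adjustment over all of them and a threshold of 0.05. edgeR 4.0.16 (quasi-likelihood) and DESeq2 1.42.0 on recovered reads were alternatives. Limma log2 changes and pair differences are on the scale of the count plus 1, which understates changes of low genes. Changes from DESeq2 and edgeR come from fits to the recovered reads without that pseudocount. Deviations from group means correlated across genes at r = 0.68, 0.57 and 0.44 for libraries with the same number 1, 2 and 3, all above 0.1, so same-numbered libraries were taken as pairs. Knockdown 2 also correlated with control 3 (r = 0.38), and knockdown 3 with control 2 (r = 0.37), so these combinations passed the same threshold. The threshold thus cannot tell whether 2 goes with 2 and 3 with 3, and that matching rests on the sample titles. What the numbers mark is not in the labels. The p-values measure the spread between these libraries, which may be technical. The members and lists were chosen with earlier results of these data known. Genes named beyond the 10 were Jag1, up to 4 genes per pathway list called by DESeq2 with the replicate term (or, with none called, the 2 most abundant), and the 3 genes most like Dusp6, Spry4 and Etv4; Elk1 was named after its value was seen. Gm42922 was named for its overlap with Spry1. Epha2 and Kcnn4, which that DESeq2 fit did not call, were named after their values were seen. The kit does not mark strand.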

Additional observations from a re-analysis of the deposited data

How the results depend on the processing

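The number of genes called in limma on all 6 libraries was 0, and it was 116 with spike-in scaling, 174 with DESeq2 without the replicate block, 2 each with limma and edgeR with the block, 1001 with DESeq2 with the block and 1346 in limma on replicates 2 and 3 only. Leaving out 1 library at a time in limma gave 0 to 294 called genes, the highest without control 1, and DESeq2 with the block gave 2120 without replicate 1, 97 without replicate 2 and 127 without replicate 3. Of the 10 members 0 were called in limma, 2 on replicates 2 and 3 only, and 5 in DESeq2 with the block without replicate 1. In the other 18 settings 0 were called. The replicate block thus added no called member while all 3 pairs were in the fit.

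The Jag1 change of -1.03 passed in DESeq2 with the block (-1.02) and without replicate 1 (-1.11). The median change of the members, -0.13, ran from -0.50 without control 1 to 0.28 without knockdown 1 when 1 library was left out. Spike-in scaling moved the median of all genes to -0.18, and beside it the members' median was -0.31. The share of spike-in reads was uneven, at 0.740%, 1.04% and 0.462% in knockdowns 1, 2 and 3 and 0.529%, 0.668% and 0.711% in controls 1, 2 and 3.

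Signs turned for members near 0 or with a wide spread. Spry2 was at -0.15 with spike-in scaling and -0.032 on replicates 2 and 3 only, -0.035 and -0.22 in DESeq2 with the block without replicate 1 and without replicate 3, and ran from -0.40 to 0.40 when 1 library was left out. Dusp4 was at -0.12 in DESeq2 with the block without replicate 2 and -0.010 without knockdown 2, against 0.87 without knockdown 1. Dusp5 was at 0.027 and 0.078 in DESeq2 with the block without replicates 2 and 3, and ran from -1.07 to 0.76 over the left-out libraries. Dusp6 ran from -2.13 to 0.58, Spry1 from -0.45 to 0.17 (0.13 in DESeq2 with the block without replicate 2) and Etv4 from -0.23 to 0.011. Spry4, Spred1, Spred2 and Etv5 kept their sign in all 20 settings. For Spred2 and Etv5, whose groups did not overlap, leaving out a library in limma could not turn the sign. For Spred1, lower in every pair, limma on replicates 2 and 3 only could not turn it. The cause of these shifts was not tested. Every member had over 500 normalised counts in each library. The SE of Dusp6 was 1.48 in limma without the block and 0.22 with it.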
